A study of Mus musculus with 7 samples.

Results

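Thyroid antigens were followed in medullary epithelial cells sorted from reconstituted NOD thymus. The 5 genes were taken from a list of thyroid genes, and all 5 of them were found among the 19937 genes measured, each on 1 probe set. They were thyroglobulin (Tg), the thyrotropin receptor (Tshr), the sodium iodide symporter (Slc5a5) and the transcription factors Pax8 and Nkx2-1. The selection rule used no measured value, although the list was drawn up with earlier results of these data known. The reconRAG1KO group (4 samples), the control of the series, came from NOD mice without RAG1, the lymphocyte recombinase. The reconSCID group (3 samples) came from NOD mice with the SCID mutation of DNA-dependent protein kinase. Every recipient was irradiated with 200 rad and given bone marrow by intraperitoneal injection 6 h later, as a pup of 2 to 4 days, and thymi were taken 6 to 8 weeks after transfer. Epithelial cells bright for MHC class II were sorted, and total RNA was hybridised to Affymetrix arrays. The labels do not give the marrow donor, the sex of the recipients or the number of thymi per sample, and they call the samples biological replicates without naming separate animals, so p-values measure the spread between these samples. All groups carry the same irradiation and transfer, and no untreated thymus is included.

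The thyroid follicle makes hormone on thyroglobulin, a very large secreted protein whose tyrosines are iodinated and coupled. The iodide symporter brings iodide into the follicular cell, and the thyrotropin receptor, a G protein-coupled receptor, drives growth, iodide uptake and hormone synthesis. Pax8, a paired-domain factor, and Nkx2-1, a homeodomain factor, bind the promoters of thyroid genes. Pax8 is also used in the kidney and Nkx2-1 in the lung and the ventral forebrain. Thyroglobulin is a classic autoantigen of autoimmune thyroiditis and the thyrotropin receptor is that of Graves disease. Medullary epithelial cells transcribe many such tissue antigens at low level and display them to developing T cells, many through the regulator Aire and some without it.

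Promoter windows of RefSeq, assembly GRCm38.p6, were found for 3 of the 5 genes. They are shown because the symporter is a known target of both factors and because Pax8 and Nkx2-1 varied together over the arrays. Many other genes varied with each of these factors as well, so that likeness was not read as shared promoter control. Each window runs from 250 bases before to 50 bases after the annotated start, 5′ to 3′ on the strand of the gene, and capitals mark CAAG or its reverse complement CTTG, the core letters of known Nkx2-1 sites. All 3 genes lie on the minus strand, Slc5a5 at chr8:70892708-70893007, Pax8 at chr2:24475550-24475849 and Nkx2-1 at chr12:56536859-56537158.
Slc5a5: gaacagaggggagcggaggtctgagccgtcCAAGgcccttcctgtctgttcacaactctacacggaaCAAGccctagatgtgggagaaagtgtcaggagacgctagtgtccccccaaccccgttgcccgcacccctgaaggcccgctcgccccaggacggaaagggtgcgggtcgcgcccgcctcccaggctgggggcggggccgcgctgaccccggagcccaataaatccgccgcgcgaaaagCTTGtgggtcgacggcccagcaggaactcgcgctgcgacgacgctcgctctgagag
Pax8: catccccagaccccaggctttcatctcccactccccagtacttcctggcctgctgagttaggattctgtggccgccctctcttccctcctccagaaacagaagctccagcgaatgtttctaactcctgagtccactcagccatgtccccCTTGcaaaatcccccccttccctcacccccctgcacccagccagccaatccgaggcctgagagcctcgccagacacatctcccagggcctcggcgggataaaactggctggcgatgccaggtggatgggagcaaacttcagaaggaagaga
Nkx2-1: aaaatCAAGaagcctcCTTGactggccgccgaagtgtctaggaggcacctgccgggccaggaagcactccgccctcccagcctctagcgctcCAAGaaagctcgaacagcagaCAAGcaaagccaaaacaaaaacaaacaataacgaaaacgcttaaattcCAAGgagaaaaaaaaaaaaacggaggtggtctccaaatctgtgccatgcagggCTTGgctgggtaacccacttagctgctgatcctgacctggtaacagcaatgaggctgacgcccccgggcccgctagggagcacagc
On both strands CAAG occurred 3 times in the Slc5a5 window, 1 time in that of Pax8 and 6 times in that of Nkx2-1. Of 32851 promoter windows of 300 bases in the table, 90.6% held CAAG, so its presence does not set these windows apart. The longer form CTCAAG, which contains CAAG, was found in 0 of the 3 windows and in 15.9% of all windows, and TATAAA in 0 of the 3 and in 13.6% of all. The bases G and C made up 67.0%, 59.3% and 53.7% of the windows of Slc5a5, Pax8 and Nkx2-1. No array value reads promoter activity directly.

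Transcript levels of the 5 thyroid genes did not differ detectably between reconSCID and reconRAG1KO. By limma with Benjamini-Hochberg adjustment over 34760 probe sets, 0 of the 5 passed an adjusted p of 0.05, and over all probe sets 0 passed as well (percent called 0). At an unadjusted p under 0.05 the count was 0 of 5, beside 1159 of all probe sets, or 3.33%. Groups that did not overlap were also found for 0 of 5, beside 3.52% of all probe sets. All 5 differences were below 0 but small, with a median log2 difference of -0.05. Over all genes the median was -0.01, with 10454 of 19937 below 0. The 5 genes varied together over the arrays, so their shared sign is not 5 separate observations.

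Tg (probe set 10424493), the hormone precursor, had log2 intensities of 6.37, 6.37, 6.37 and 6.75 in reconRAG1KO replicates 1 to 4 and of 6.32, 6.57 and 6.37 in reconSCID replicates 1 to 3. In 4 of the 7 arrays the deposited value was identical, so the spread of Tg rests on the other 3. The highest sample of each group was reconRAG1KO replicate 4 and reconSCID replicate 2, and the groups overlapped. The mean of Tg was 6.46 ± 0.19 (SD, n = 4) against 6.42 ± 0.13 (SD, n = 3), a log2 difference of -0.05 with a 95% interval from -0.36 to 0.27 (limma adjusted p = 1).

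Tshr (probe set 10397606), the receptor, measured 4.59, 4.59, 4.59 and 4.96 in reconRAG1KO and 4.46, 4.73 and 4.43 in reconSCID, with 3 arrays at an identical deposited value. ReconSCID replicates 1 and 3 lay below every reconRAG1KO sample and replicate 2 lay within that group's range. The mean of Tshr was 4.69 ± 0.19 (SD, n = 4) against 4.54 ± 0.16 (SD, n = 3), a log2 difference of -0.15 with an interval from -0.47 to 0.18 (limma adjusted p = 1).

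Slc5a5 (probe set 10579442), the iodide transporter, measured 6.71, 6.67, 6.73 and 6.78 in reconRAG1KO and 6.52, 6.99 and 6.54 in reconSCID. The controls lay close together, and the reconSCID samples lay on both sides of them. Its mean was 6.72 ± 0.05 (SD, n = 4) against 6.68 ± 0.27 (SD, n = 3), a log2 difference of -0.04 with an interval from -0.36 to 0.28 (limma adjusted p = 1).

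Of the transcription factors, Pax8 (probe set 10480477) measured 6.49, 6.53, 6.53 and 6.94 in reconRAG1KO and 6.38, 7.002 and 6.29 in reconSCID. Its log2 difference was -0.06 with an interval from -0.56 to 0.43 (limma adjusted p = 1), from means of 6.62 ± 0.21 (SD, n = 4) and 6.56 ± 0.39 (SD, n = 3). Nkx2-1 (probe set 10400474) spread most, at 6.15, 6.13, 6.14 and 6.81 in reconRAG1KO and 6.02, 6.93 and 5.92 in reconSCID. Its log2 difference was -0.02 with an interval from -0.72 to 0.69 (limma adjusted p = 1), from means of 6.30 ± 0.33 (SD, n = 4) and 6.29 ± 0.56 (SD, n = 3). For both factors reconRAG1KO replicate 4 and reconSCID replicate 2 were the highest samples, and the other reconSCID samples were the lowest. None of the 5 intervals reached a log2 change of 1, a 2-fold change in measured intensity, in either direction.

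**Figure D1:**
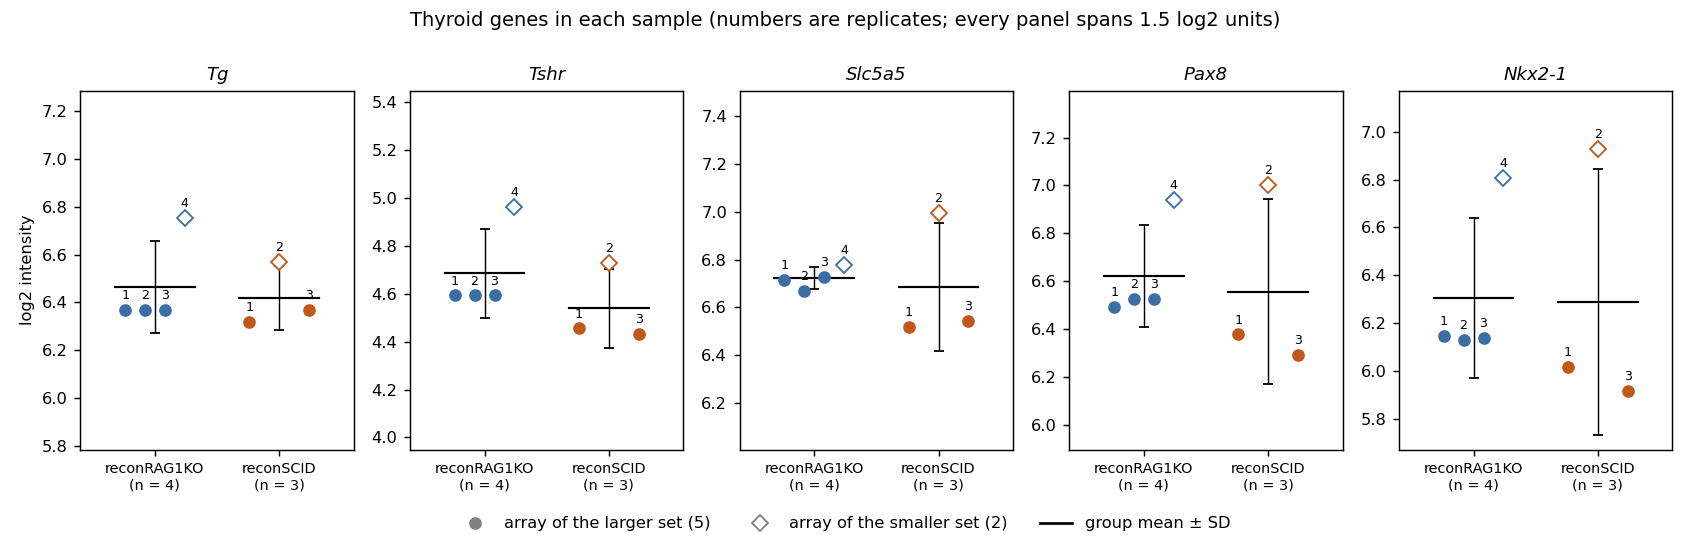
Log2 intensity of the 5 thyroid genes in every sample, by group, with points as arrays numbered by replicate, filled circles and open diamonds for the larger and the smaller array set, and lines with bars as group mean ± SD. The open diamonds, reconRAG1KO replicate 4 and reconSCID replicate 2, are the highest sample of their group for every gene.

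The signals were low, and how much of each is background is not known, because the deposited values carry no detection call. Array medians over all probe sets lay between 6.47 and 6.59. Slc5a5 lay above the array median in 7 of 7 arrays, Pax8 in 5, Nkx2-1 in 2, Tg in 1 and Tshr in 0. Olfactory receptor genes, which are silent in most cells outside the nose, gave a scale for a signal without much transcript, with a median of the mean log2 intensity of 4.19 over 1027 genes and a 95th percentile of 6.05. The mean of Tshr was matched or exceeded by 34.5% of these genes. For Nkx2-1, Tg, Pax8 and Slc5a5 the shares were 2.63%, 1.75%, 1.46% and 1.17%. Probe sets differ in brightness at equal transcript level, so these shares order no gene against another. Any background left in both groups would make a fold change at such levels look smaller, and whether it does here is not known.

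The 5 thyroid genes differed more between 2 sets of arrays than between the groups. ReconRAG1KO replicate 4 and reconSCID replicate 2 form a smaller set (r of 0.922 to 0.947 against the remaining arrays), whereas the 5 arrays of the larger set had an r of 0.976 to 0.990 among themselves. Labels name no batch. Nkx2-1 was higher in the smaller set by 0.67 within reconRAG1KO and by 0.96 within reconSCID. Pax8 was higher by 0.43 and 0.67, Tg by 0.38 and 0.23, Tshr by 0.37 and 0.28, and Slc5a5 by 0.07 and 0.46. These values are a description with no test, since the sets were found from the same arrays. Over all genes the median difference between the sets was 0.12, with 12719 of 19937 above 0. It was 0.20 for olfactory receptor genes, 0.82 for general epithelial genes and -1.14 for ribosomal protein genes. Cortical epithelial genes had a median of 0.81 (6 of 7 above 0). Medullary genes, those of the sorted cells, were mixed, with a median of 0.41 and 7 of 12 above 0. Markers of other cells differed as well, with medians of 1.06 for endothelium and fibroblasts (7 of 8 above 0), -1.02 for dendritic cells and macrophages (7 of 7 below 0), -0.93 for thymocytes (8 of 9 below 0), -0.80 for neutrophils (7 of 8 below 0) and -0.51 for B cells (7 of 9 below 0). The part of all these in the thyroid values was not tested.

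With a block for the array set in the fit, the intervals narrowed and Tshr was the 1 gene of the 5 with an unadjusted p under 0.05, beside 12.3% of all probe sets. Tshr then differed by -0.17 on the log2 scale (interval -0.30 to -0.05, limma adjusted p = 0.305). In the larger set its 3 reconRAG1KO arrays held an identical value, which can make an interval too narrow, here and in that set alone. The block itself was found from the same arrays. The blocked differences of Tg, Slc5a5, Pax8 and Nkx2-1 were -0.07, -0.06, -0.11 and -0.08, with adjusted p of 0.623, 0.796, 0.546 and 0.655, and all 4 intervals included 0. Tshr was below 0 in both sets, at -0.15 in the larger and -0.24 in the smaller one, and it stayed below 0 without each sample in turn.

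Within the 5 arrays of the larger set, Tshr, Slc5a5, Pax8 and Nkx2-1 were lower in both reconSCID samples than in every one of the 3 reconRAG1KO samples. Groups did not overlap in this direction for 15.4% of all probe sets. Their log2 differences were -0.15 (interval -0.25 to -0.05), -0.17 (-0.29 to -0.06), -0.18 (-0.31 to -0.05) and -0.17 (-0.31 to -0.04), with limma adjusted p of 0.228, 0.223, 0.232 and 0.253. An unadjusted p under 0.05 with a lower level was found for these 4 and for 6.63% of all probe sets. After adjustment 0 probe sets passed. Of all 19937 genes, 1551 were lower at that unadjusted p, and 3613 had lower reconSCID groups that did not overlap. Tg differed by -0.02 (-0.13 to 0.09). In the 2 arrays of the smaller set, with 1 array per group and no test, the difference was 0.22 for Slc5a5, 0.06 for Pax8 and 0.12 for Nkx2-1, opposite in sign to the 5 arrays, and -0.18 for Tg. The general epithelial genes moved the same way in the 5 arrays, with 14 of 14 lower, a median of -0.61, list means of 8.49 to 8.80 in reconRAG1KO and of 7.80 and 8.24 in reconSCID, and 12 of 14 genes whose groups did not overlap. B cell genes had a median of 1.33 there, with 8 of 9 higher and 8 of 9 not overlapping in that direction, beside 15.7% of all probe sets. Other lists also shifted in the 5 arrays. All 7 dendritic cell and macrophage genes were higher (median 0.60), and for 6 of them the groups did not overlap. All 8 neutrophil genes were lower (median -1.64), and for 7 of them the groups did not overlap. Medullary genes were mixed, 9 lower and 3 higher, as were cortical epithelial genes, 4 lower and 3 higher. The part of all these lists in the thyroid values was not tested. In bulk samples fewer epithelial cells and less RNA per cell cannot be told apart.

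**Figure D2:**
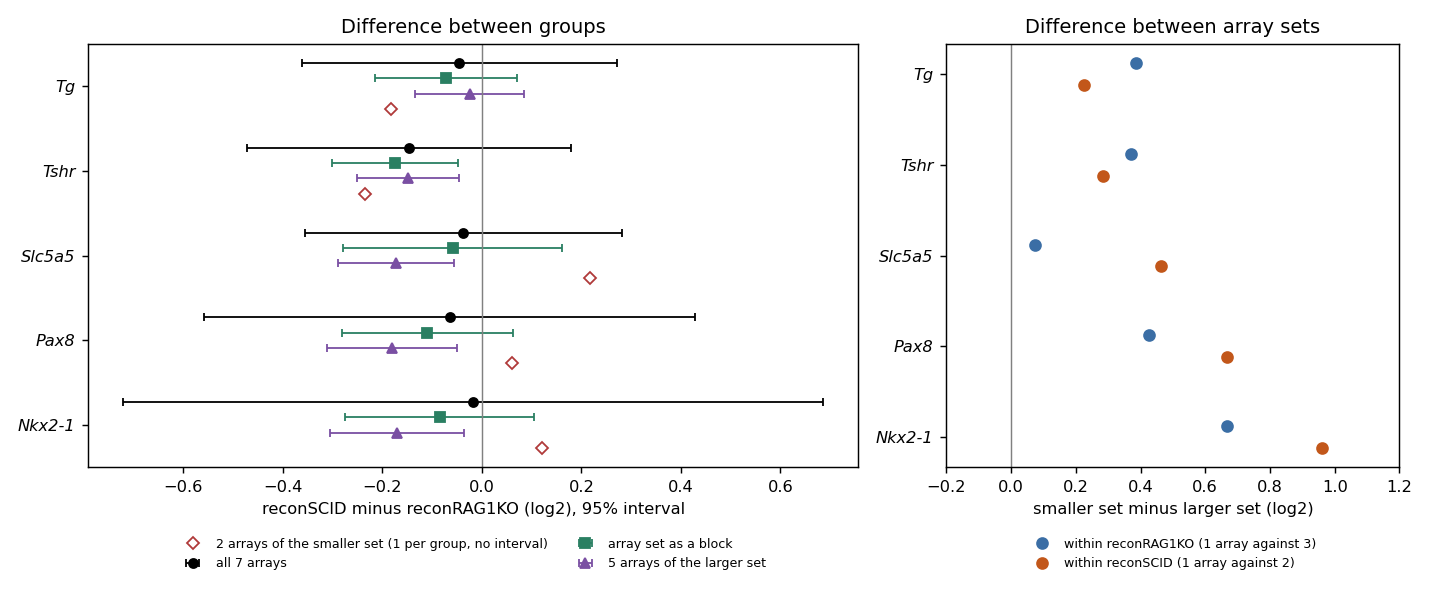
Left, log2 difference of reconSCID minus reconRAG1KO for each thyroid gene with 95% limma intervals in all 7 arrays, in the fit blocked on array set and in the 5 arrays of the larger set, and as a plain difference in the 2 arrays of the smaller set. Right, difference of the smaller minus the larger array set within each group; all 10 points lie above 0, from 0.07 to 0.96.

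Pax8 and Nkx2-1 followed each other most closely of the 10 pairs of thyroid genes, with a Pearson r of 0.992 over the 7 arrays and 0.978 over the 5 arrays. Within the larger set the r of Tg was 0.284 with Nkx2-1 and 0.349 with Pax8, against 0.889 and 0.877 over the 7 arrays. Its r with Slc5a5 was the lowest of the 10 pairs over the 7 arrays, at 0.628, and was 0.662 over the 5 arrays. In 4 of those 5 arrays Tg held an identical value, and only reconSCID replicate 1 differed. The r of Tg over the 5 arrays therefore rests on that array and cannot show whether Tg followed the other genes. These correlations share the array sets described above and are a description only. Many other genes followed the same pattern, since 3166 genes had an r above 0.9 with Nkx2-1, 2886 with Pax8, 2237 with Tg, 1744 with Tshr and 705 with Slc5a5. The genes most like each one were Hey2 (0.999), Ubap2 and Krt36 for Nkx2-1, Osbpl5 (0.999), Msrb3 and Auts2 for Pax8, Gabrr1 (0.9996), Efcab15 and Ankrd7 for Tg, Gm5901 (0.999), Lrrc56 and Elovl7 for Tshr, and Olfr907 (0.991), Tmem74b and Fam43b for Slc5a5, each over 7 arrays. The mean of the olfactory receptor genes correlated with Nkx2-1 at 0.938, with Tg at 0.915 and with Slc5a5 at 0.746. The mean of ribosomal protein genes correlated with Nkx2-1 at -0.974. That of cortical epithelial genes correlated with Tshr at 0.989, Tg at 0.949, Pax8 at 0.843, Nkx2-1 at 0.823 and Slc5a5 at 0.58.

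Genes related to the thyroid were read in 8 lists, with 58 members measured of 65. Not all of them are thyroid genes, since the lists include lung genes, relatives of the 5 genes and parathyroid genes. By limma 0 of the 58 passed after adjustment. At an unadjusted p under 0.05, 1 was higher and 2 were lower (2.2% and 1.13% of all probe sets). By the same rule 172 of all 19937 genes were higher and 237 were lower. Among the 58, the higher gene was Pax5, the B cell relative of Pax8, and the lower genes were Dio1 and the club cell gene Scgb1a1. Of the 58, 3 had lower reconSCID groups that did not overlap (1.43% of all probe sets). In the fit blocked on array set 1 was higher and 8 were lower at an unadjusted p under 0.05, beside 6.53% and 5.77% of all probe sets. Over all 19937 genes the counts in that fit were 1064 higher and 1345 lower. The median log2 difference of the 58 genes was -0.02 in the fit without a block and -0.04 in the blocked fit.

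Hormone synthesis genes, 10 of 11 measured, had a median of 0.00 with 5 above and 5 below 0 and 0 passing. Kcnq1 and Kcne2, subunits of a potassium channel that supports iodide uptake, had log2 differences of -0.11 and 0.23. Duoxa1, the maturation factor of the peroxide-producing oxidase, differed by 0.04 and the iodotyrosine deiodinase Iyd by -0.14. Iyd measured 5.64 ± 0.03 (SD, n = 4) and 5.50 ± 0.09 (SD, n = 3), with an interval of the difference from -0.34 to 0.06.

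Among the other thyroid transcription factors 0 of 3 passed. Foxe1, a forkhead factor of thyroid and foregut, measured 7.77, 7.77, 7.77 and 7.90 in reconRAG1KO and 7.61, 8.07 and 7.37 in reconSCID, a log2 difference of -0.12 with an interval from -0.52 to 0.28. Like Pax8, Foxe1 was highest in reconSCID replicate 2 and lowest in reconSCID replicate 3. Hhex, a homeobox factor also used in blood cells, differed by 0.05 and was lowest in the 2 arrays of the smaller set, at 6.31 and 5.79. Glis3 differed by -0.08.

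Of the thyrotropin axis 0 of 6 measured genes passed, with a median of 0.02. Trh, the hypothalamic releasing hormone, differed by 0.05 and Cga, the shared alpha subunit of pituitary glycoprotein hormones, by -0.18. Gpha2 and Gphb5, the subunits of a further ligand of the thyrotropin receptor, differed by 0.06 and -0.06. Genes of thyroglobulin proteolysis and hormone export, 6 of 7 measured, had a median of 0.11 and 0 passing. The lysosomal proteases Ctsb and Ctsd, which most cells use for general protein turnover, were bright at means of 11.48 and 10.84 and differed by -0.03 and 0.12. Ctsk and the transporter Slc16a10 both differed by 0.11.

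Hormone conversion, carriage and receptor genes, 8 of 8 measured, had a median of -0.10 with 0 passing. Dio1, the deiodinase that activates thyroid hormone in liver, kidney and thyroid, measured 8.21, 8.38, 8.55 and 8.10 in reconRAG1KO and 7.93, 7.94 and 7.32 in reconSCID. Every reconSCID sample of Dio1 lay below every reconRAG1KO sample, in both array sets. Its mean was 8.31 ± 0.20 (SD, n = 4) against 7.73 ± 0.35 (SD, n = 3), a log2 difference of -0.58 ± 0.19 (SE) with an interval from -1.04 to -0.12, an unadjusted limma p of 0.0207 and an adjusted p of 1, which was 0.352 in the fit blocked on array set. Thrsp, a hormone-responsive gene of lipogenic tissue, differed by -0.74 with an interval from -1.67 to 0.19. The hormone carrier Ttr differed by -0.20 and the receptor Thrb by 0.14.

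Genes of thyroid C cells and of the parathyroid, 3 of 6 measured, had a median of -0.15 and 0 passing. Calcb, a calcitonin gene-related peptide, measured 9.97, 10.15, 10.43 and 10.26 in reconRAG1KO and 9.96, 9.90 and 9.04 in reconSCID. The groups of Calcb did not overlap, by a narrow margin, and reconSCID replicate 3 stood lowest. Calcb differed by -0.57 (interval -1.16 to 0.01, limma adjusted p = 1). Casr, the calcium sensor, differed by -0.15, and Pth, the parathyroid hormone gene, by -0.07 at a mean of 3.96, below the median of olfactory receptor genes.

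Among close relatives of the 5 genes, 13 of 14 measured, 0 passed and the median was -0.05. Pax5, the B cell relative of Pax8, differed by 1.13 with an interval from 0.07 to 2.18 (limma adjusted p = 1), and the B cell list to which it belongs had a median of 0.99 with 8 of 9 above 0. Pax1, a thymic epithelial factor, differed by -0.27, and Nkx2-4, the nearest relative of Nkx2-1, by -0.07. Slc5a8, a monocarboxylate transporter of the iodide symporter family that thyroid cells carry, measured 7.71, 7.76, 7.78 and 7.78 in reconRAG1KO and 7.37, 7.75 and 7.11 in reconSCID. Slc5a8 differed by -0.35 (interval -0.71 to 0.01), and reconSCID replicate 2 lay within the control range.

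Lung genes were read beside Nkx2-1, which drives many of them, and 0 of 9 passed, with a median of -0.02. Scgb1a1, the club cell secretoglobin, was lower in every reconSCID sample, at 5.51, 5.72 and 5.45 against 5.90, 5.74, 6.04 and 5.79. The margin was narrow, and all 7 values lay below 6.05, the 95th percentile of olfactory receptor genes. Scgb1a1 differed by -0.31 on the log2 scale, with an interval from -0.58 to -0.03 (limma adjusted p = 1). The surfactant protein gene Sftpd differed by -0.22, Abca3 by 0.03 and the protease gene Napsa, bright at a mean of 9.12, by 0.01.

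**Figure D3:**
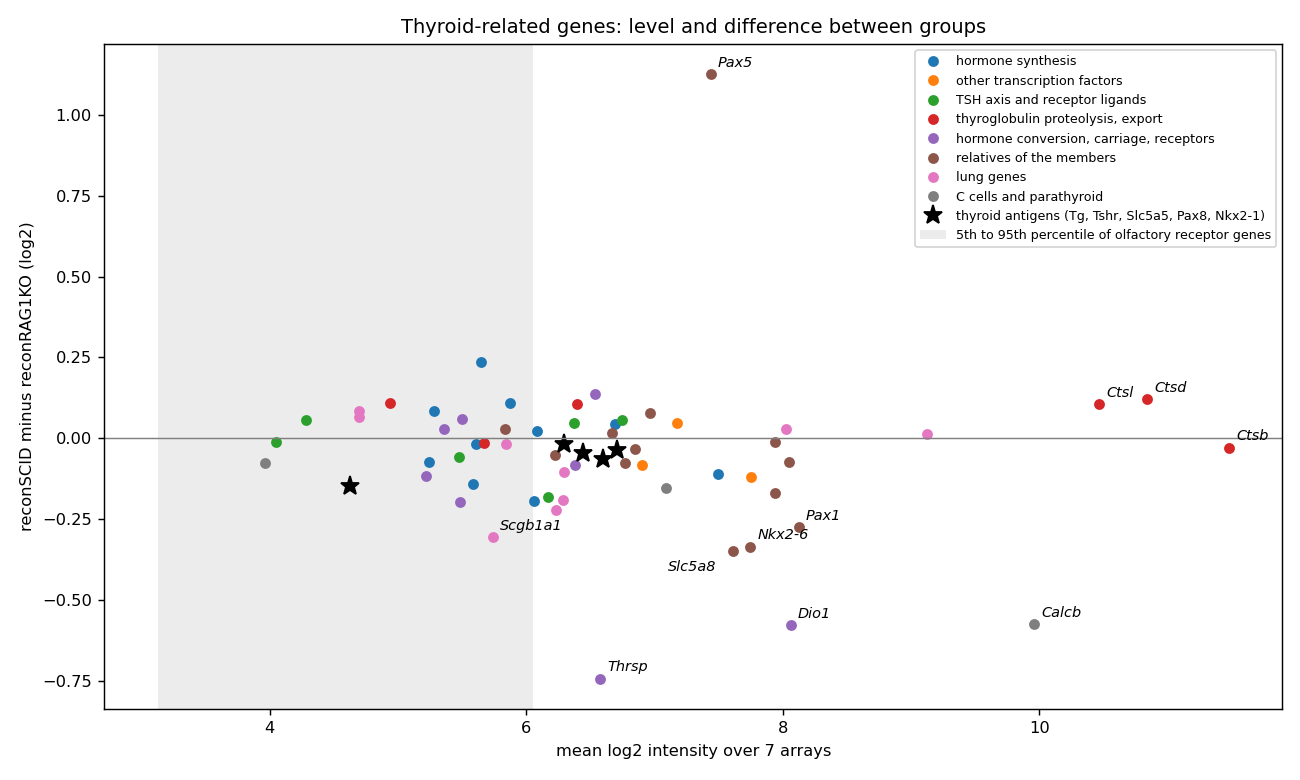
Mean log2 intensity over 7 arrays against the log2 difference of reconSCID minus reconRAG1KO for the 58 measured genes of the 8 thyroid-related lists, coloured by list, and the 5 thyroid genes as stars; the grey band spans the 5th to 95th percentile of olfactory receptor genes. The stars lie near a difference of 0, while Thrsp (-0.74), Dio1 (-0.58), Calcb (-0.57) and Pax5 (1.13) lie furthest from it.

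**Figure D4:**
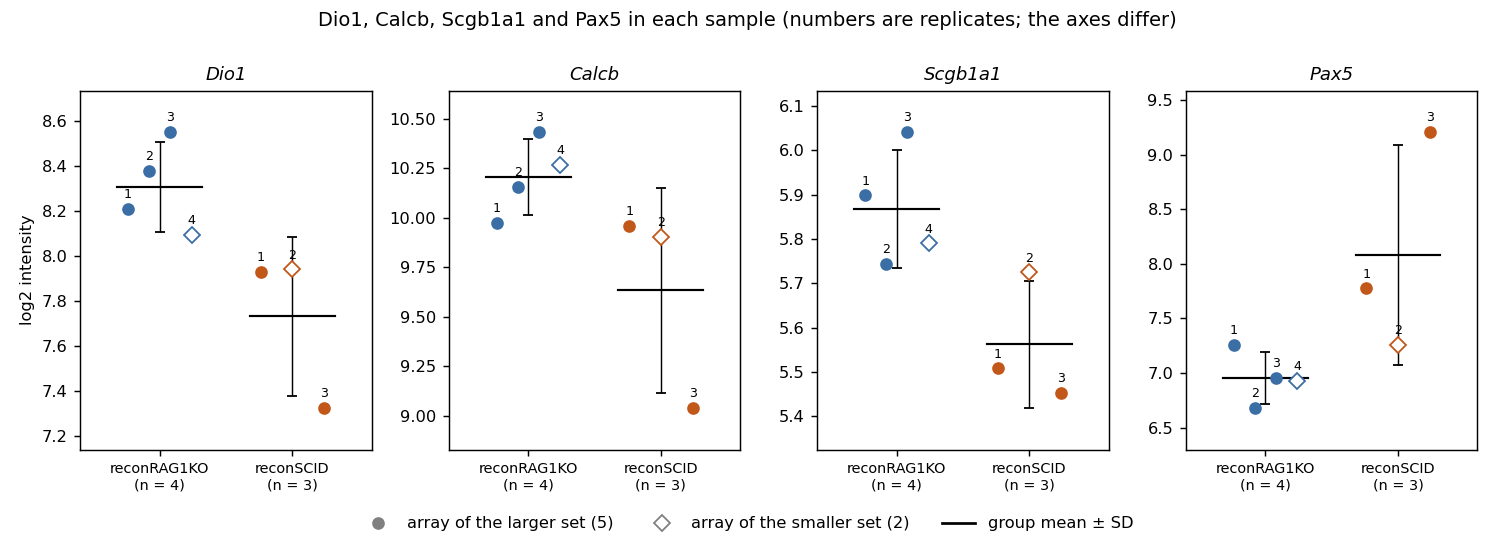
Log2 intensity of Dio1, Calcb, Scgb1a1 and Pax5 in every sample, by group, with symbols as arrays of the larger or smaller set and lines with bars as group mean ± SD. Groups do not overlap for Dio1, Calcb and Scgb1a1, all lower in reconSCID, though the margin is narrow for Calcb and Scgb1a1. The groups touch for Pax5, where reconSCID replicate 3 is highest at 9.21.

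Defining genes of the sort were read, which does not measure its purity. The epithelial adhesion gene Epcam measured 8.91 to 10.35, the invariant chain gene Cd74 13.27 to 13.40 and Aire 9.73 to 11.93 over the 7 arrays. Genes of other cells also gave signal. Dendritic cell and macrophage genes had list means of 8.27 to 10.20, beside 7.80 to 9.19 for general epithelial genes. In reconSCID replicate 3 these means were 10.20 and 7.80, with 8.72 for B cell genes. Neutrophil genes had means of 6.55 to 9.26. Probe sets differ in brightness, so these levels give no share of cells. Of the thyroid follicular marker list, 9 of 10 genes were measured and their mean lay at 6.07 to 6.39 in reconRAG1KO and 5.96 to 6.42 in reconSCID. Antigens known to depend on Aire, 9 of 10 measured, had a median log2 difference of -0.61, with 9 of 9 below 0 and 5 not overlapping in that direction (1.43% of all probe sets), beside -0.05 and 0 of 5 for the thyroid genes. Over the same 7 arrays the median was -1.43 for neutrophil genes (8 of 8 below 0), -0.41 for general epithelial genes (14 of 14) and -0.40 for medullary genes (12 of 12), and Aire itself differed by -0.57. The part of these in that median was not tested, nor was the difference between the lists, and S100a8 of the Aire-dependent list is also a neutrophil gene.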

How the data were processed

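The authors deposited a linear intensity per probe set for 7 arrays. The sources used here do not state how probes were summarised or arrays normalized. With 0 values below 1, log2 was taken with no pseudocount. Per the labels' protocols, the arrays were Affymetrix arrays and 6 µg of total RNA was labelled. In 46.2% of 34760 probe sets at least 2 arrays held an identical deposited value, which can make the spread look smaller than it was. The number of arrays limits the precision. Genes were named from the platform annotation where a probe set had 1 symbol (21640; 1321 had several and 11799 were unnamed there), and the brightest probe set stood for a gene.

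Groups came from the sample titles. The groups were compared, two-sided and without covariates, by limma 3.58.1 (lmFit, eBayes; R 4.3.3), adjusted by Benjamini-Hochberg over all probe sets. The script was tested on simulated data. The thyroid genes and all lists were chosen with earlier results of these data known. Genes named from a list are its 2 brightest and up to 2 more with the smallest p, and Ctsl and Nkx2-6 appear in a plot only. Array sets are 2 clusters (average linkage on 1 minus Pearson correlation). Alternatives were quantile and median scaling, dropping dim probe sets, adding 16 before log2, a trended robust fit, array weights, blocks for replicate number or array set, leaving samples out, and averaging the probe sets of a gene.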

Additional observations from a re-analysis of the deposited data

Results flagged for a closer look

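Among 35 genes looked at one by one in the reconRAG1KO group of 4, 11 had a sample far from the other 3. Chance would give about 1 in 20 for independent values without ties, a rate that does not apply here, because 10 of the 11 share an array and 6 of the 11 hold tied values. The gap of that sample, as a share of the range of the group, was 1 for Tg, 1 for Tshr, 0.922 for Pax8 and 0.973 for Nkx2-1, in each case with reconRAG1KO replicate 4 highest. Among related genes the share was 1 for Duoxa1, 1 for Foxe1, 1 for Sftpd and 0.88 for Casr with the same sample highest, and 1 for Abca3 and 0.981 for Hhex with it lowest. For Kcne2 the share was 0.908, with reconRAG1KO replicate 2 lowest. For Tg, Tshr, Duoxa1, Foxe1, Abca3 and Sftpd the other 3 controls held identical deposited values, which gives a share of 1 whatever the size of the gap, so these 6 say nothing about distance. ReconRAG1KO replicate 4 is 1 of the 2 arrays of the smaller set and had already been set apart by its correlations with the other arrays. The reconSCID group, with 3 samples, is too small for this test.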

How the results depend on the processing

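No thyroid gene passed an adjusted p of 0.05 by limma under any of the alternatives run. The lowest adjusted p was 0.167, for Slc5a5. The sign of Tshr was below 0 under all 24 alternatives, but many of them are not separate checks. The trended robust fit and the average of probe sets return the difference of the main fit, since each gene has 1 probe set. With the replicate number as a block, Tshr differed as it did without reconRAG1KO replicate 4. Leaving out any of the tied controls 1 to 3 gave the same difference for Tshr. Leaving out each sample in turn gave log2 differences from -0.12 to 0.05 for Tg, from -0.24 to -0.05 for Tshr, from -0.19 to 0.05 for Slc5a5, from -0.29 to 0.07 for Pax8 and from -0.34 to 0.17 for Nkx2-1. The sign turned to above 0 for Tg without reconRAG1KO replicate 4 (0.050) or reconSCID replicate 1 (0.0045). It turned for Slc5a5 without reconSCID replicate 1 (0.046) or 3 (0.034). It turned for Pax8 without reconRAG1KO replicate 4 (0.042) or reconSCID replicates 1 (0.025) or 3 (0.068), and for Nkx2-1 without the same samples (0.15, 0.12 and 0.17). In the fits blocked on array set with each sample left out, every difference stayed below 0. These fits share most arrays, and those without reconRAG1KO replicate 4 or reconSCID replicate 2 are the fit of the larger set alone. In the smaller array set alone Slc5a5, Pax8 and Nkx2-1 were at 0.22, 0.061 and 0.12. With the replicate number as a block Tg, Pax8 and Nkx2-1 were at 0.050, 0.042 and 0.15, and 0 probe sets passed. The deviations of same-numbered samples correlated at 0.472, -0.509 and 0.314, and 2 of 6 samples correlated best with their own number, so the numbers were not used as pairs. Over all probe sets 57 passed with array weights, which were 4.79 for reconSCID replicate 1 and 0.120 for replicate 2. In the fit without weights 0 passed and 1159 had an unadjusted p under 0.05. Tg, Tshr and Nkx2-1 were removed by the filter on low values, so they have no value there. The causes of these changes were not tested. How much of each signal is background is not known, which limits what can be read from these values.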
